A study of Homo sapiens with 10 samples.

Results

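The MYC, MAX and MXD network is a set of transcription factors that share a basic helix-loop-helix leucine zipper and the partner MAX. Its members were taken by name: MYC, MYCN, MYCL, MAX, MXD1, MXD3, MXD4, MXI1, MNT and MGA. Of these 10 genes, 9 had a row of the expression table annotated with a single gene symbol, out of 14232 genes with such a row among 22011 rows. MGA had no such row and was not analysed here. MYCN had 2 such rows. Where a gene had several rows, the brightest by mean over the 10 arrays was used.

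The arrays measured total RNA of SH-SY5Y cells, an established line from a human neuroblastoma, a tumour of the sympathetic nervous system. The 5 paraquat arrays (numbers 8, 12, 14, 18 and 20 in the sample titles) came from SH-SY5Y cells exposed to paraquat, a redox-cycling herbicide that produces superoxide. The 5 control arrays (numbers 7, 11, 13, 17 and 19) came from untreated SH-SY5Y cells. No other genotype, agent or time distinguishes the groups in the labels, and neither dose nor duration is stated in the sources used here. Whether arrays of the same group stem from separate cultures is not stated either, so the p-values reflect only array-to-array spread, possibly technical.

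MYC, MYCN and MYCL activate transcription as dimers with MAX at the E-box, a short DNA motif, and drive growth and cell division. MXD1, MXI1, MXD3, MXD4 and MNT compete for MAX, occupy the same motif and recruit the SIN3 corepressor, which carries histone deacetylases. MXD proteins are typically induced as cells leave the cycle or differentiate, except MXD3, which is known from proliferating cells. Amplified MYCN marks aggressive neuroblastoma, and SH-SY5Y is a line without that amplification.

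Values are log2 expression from RMA, which corrects background, equalises the arrays and gives each transcript cluster (a group of exon probes, of which a gene can have more than 1) a single value. Changes are log2 differences, paraquat minus control, each with its moderated standard error, and adjusted p-values come from limma with Benjamini-Hochberg adjustment over all 22011 rows. A change was called at an adjusted p under 0.05. The array medians lay between 6.78 and 6.92 in paraquat cells and between 6.85 and 6.93 in control cells. Control 11 had the widest residuals of all arrays (SD 0.358, with the other arrays between 0.206 and 0.291, log2). Of the 6 measured markers of sympathetic neuroblasts, 5 lay in the brighter 2 of 5 equal groups of rows, while the row of TH, the rate-limiting enzyme of catecholamine synthesis, lay in the middle group. For comparison with the marker counts, 14.2% of all genes were called lower after paraquat and 9.55% higher. Of these 6 sympathetic markers 5 were lower after paraquat and 0 higher. Of 4 measured leukocyte markers 2 were higher and 0 lower: the macrophage marker CD68 (log2 change 1.33, limma adjusted p = 1.68e-05), whose row lay in the second brightest group, and the monocyte marker CD14 (0.64, adjusted p = 0.00552). The pan-leukocyte marker PTPRC (0.06) and the T-cell marker CD3E (0.03) did not pass and lay in the dimmest group. Of 5 fibroblast markers 1 was lower, and of 3 glial markers 0 were called. Mean levels of the sympathetic markers ran from 8.58 to 8.88 on paraquat arrays and from 9.45 to 9.73 on control arrays, and those of the fibroblast markers from 7.08 to 7.33 on paraquat arrays and from 7.74 to 8.26 on control arrays. The leukocyte markers ran from 5.02 to 5.21 on paraquat arrays and from 4.48 to 4.75 on control arrays, and the glial markers from 4.61 to 5.26 on paraquat arrays and from 4.56 to 5.09 on control arrays. Whether any of these levels plays a part in the changes below was not tested, and in bulk RNA fewer cells of a type and less RNA per cell cannot be told apart.

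After paraquat, the repressive side of the network moved in both directions. MXD1 rose 2.78-fold and MNT 1.43-fold, whereas MXD4 fell to 0.520 of its control level, MXD3 to 0.654 and MXI1 to 0.727. On the activating side MYC fell to 0.722 of its control level. MYCN, MYCL and the shared partner MAX did not pass the test. In all, 6 of 9 measured members were called, 2 higher and 4 lower. Of all 14232 genes 23.8% were called, 9.55% higher and 14.2% lower. The groups did not overlap for 4 of the 9 members (MXD1, MXD3, MXD4 and MXI1), against 19.9% of all genes. Of the 9 rows, 1 (MYC) lay in the brightest of 5 equal groups of rows by mean, 6 in the next and 2 (MYCL and MXD3) in the middle one, so no member was among the dim rows where RMA compresses changes most.

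**Figure D1:**
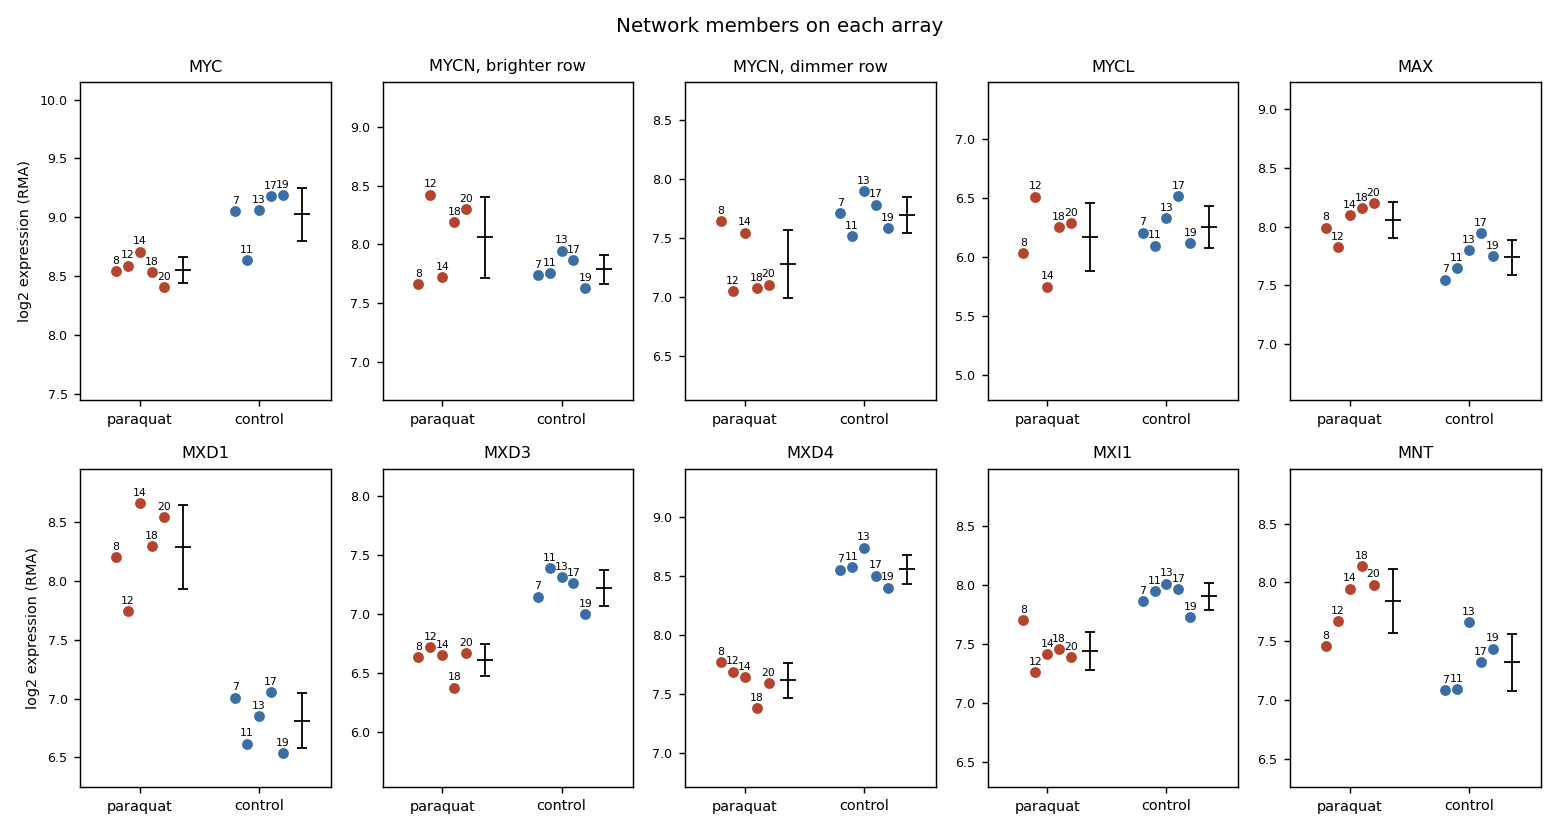
Log2 expression (y axis, RMA) of each network member on every paraquat and control array (x axis). Each point is an array labelled with its number, the black marks are the mean ± SD of 5 arrays, and every panel spans the same height on the log2 scale. MXD1 arrays of paraquat cells all lie at 7.74 or above and those of control cells at 7.05 or below.

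MXD1, known as MAD1, is a founding member of the antagonists that compete with MYC for MAX. Its row (transcript cluster 2487549) read 8.20, 7.74, 8.66, 8.29 and 8.54 on paraquat arrays 8, 12, 14, 18 and 20, and 7.01, 6.62, 6.85, 7.05 and 6.54 on control arrays 7, 11, 13, 17 and 19. Every paraquat array lay above every control array, with paraquat 12 the lowest of its group. The means were 8.29 ± 0.36 in paraquat cells and 6.81 ± 0.23 in control cells (log2, SD, n = 5 arrays each). The log2 change was 1.48 ± 0.17 (limma adjusted p = 0.000156), and 0.942% of all genes had a larger rise. It stayed between 1.38 and 1.61 when any single array was left out.

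MXD4, the MXD protein usually described in resting and differentiating tissue, moved the other way. Its row (transcript cluster 2757751) read 7.77, 7.69, 7.64, 7.38 and 7.59 on the paraquat arrays and 8.56, 8.58, 8.74, 8.50 and 8.40 on the control arrays, in the number order given above. No paraquat array reached the lowest control array. The means were 7.61 ± 0.15 in paraquat cells and 8.56 ± 0.12 in control cells (SD, n = 5 each), a log2 change of -0.94 ± 0.10 (limma adjusted p = 6.08e-05). A larger fall was seen in 2.74% of all genes.

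The E-box that MAX dimers bind, CACGTG, was searched in the 250 bases before the annotated start sites of the members, as RefSeq gives them on GRCh38.p14. The motif reads the same on both strands. The promoter table held 14 start sites of 9 members (all but MYC), and 2 of them carried the motif: that of MXD4, with its first base 238 bases before the start, and that of MNT, 193 bases before the start. Of all 35116 promoters in the table, 6.34% held the motif in the same window. The start sites of MXD1, the member with the largest rise, of MXD4, the member with the largest fall, and of MNT, the other E-box holder, are shown 5′ to 3′ with the E-box in capitals. They lie at chr2:69914859-69915108 (plus strand), chr4:2262110-2262359 (minus strand) and chr17:2401061-2401310 (minus strand).
MXD1: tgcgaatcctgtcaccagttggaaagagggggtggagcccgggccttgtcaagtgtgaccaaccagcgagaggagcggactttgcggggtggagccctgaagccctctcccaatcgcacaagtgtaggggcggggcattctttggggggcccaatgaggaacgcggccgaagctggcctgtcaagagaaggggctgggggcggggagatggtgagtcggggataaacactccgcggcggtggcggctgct
MXD4: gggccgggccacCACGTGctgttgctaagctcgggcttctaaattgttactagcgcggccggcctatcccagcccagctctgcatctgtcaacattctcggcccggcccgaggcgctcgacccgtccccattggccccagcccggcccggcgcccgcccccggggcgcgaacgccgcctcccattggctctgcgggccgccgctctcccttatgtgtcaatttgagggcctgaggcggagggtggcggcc
MNT: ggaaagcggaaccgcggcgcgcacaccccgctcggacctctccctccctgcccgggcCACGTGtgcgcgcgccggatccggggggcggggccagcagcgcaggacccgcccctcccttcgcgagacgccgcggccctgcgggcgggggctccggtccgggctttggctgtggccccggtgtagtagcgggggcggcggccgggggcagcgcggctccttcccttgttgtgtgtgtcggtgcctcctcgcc
The stretch before MXD1 holds no E-box. The E-box holders MXD4 and MNT changed in opposite directions. The match is a description of these letters and does not show binding. G and C made up 64.4% of the bases shown for MXD1, 70.4% for MXD4 and 78.0% for MNT, against a median of 58.0% over all promoters in that window.

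MXD3, the family member linked to S phase and proliferating progenitors, also fell. It read 6.63, 6.72, 6.65, 6.37 and 6.66 on the paraquat arrays (8, 12, 14, 18, 20), and 7.15, 7.39, 7.31, 7.26 and 7.00 on the control arrays (7, 11, 13, 17, 19). The groups did not overlap, and paraquat 18 was the lowest array. The row (transcript cluster 2888674) averaged 6.61 ± 0.13 in paraquat cells and 7.22 ± 0.15 in control cells (SD, n = 5 each), a log2 change of -0.61 ± 0.10 (limma adjusted p = 0.00136).

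MXI1, also called MAD2 or MXD2, is the antagonist with several alternative starts, and 3 of its start sites are in the promoter table. It read 7.70, 7.26, 7.41, 7.46 and 7.39 on the paraquat arrays and 7.86, 7.95, 8.01, 7.97 and 7.72 on the control arrays, in the same number order. The groups only just failed to overlap, since paraquat 8 at 7.70 lay beside control 19 at 7.72. The log2 change was -0.46 ± 0.10 (limma adjusted p = 0.00665) between means of 7.44 ± 0.16 in paraquat cells and 7.90 ± 0.11 in control cells (SD, n = 5 each). The table has a single value for the gene (transcript cluster 3263624), so its alternative isoforms could not be separated.

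MNT, a MAX partner expressed in both dividing and resting cells and often described as a buffer of MYC, was higher after paraquat. It read 7.46, 7.67, 7.95, 8.14 and 7.98 on the paraquat arrays and 7.09, 7.10, 7.67, 7.32 and 7.44 on the control arrays, in number order. The groups overlapped, as paraquat 8 lay below control 13. Its means (transcript cluster 3741040) were 7.84 ± 0.27 in paraquat cells and 7.32 ± 0.24 in control cells (SD, n = 5 each), a log2 change of 0.52 ± 0.15 (limma adjusted p = 0.0343). This call ended when any of paraquat 14, 18 or 20 or control 7, 11 or 17 was left out (limma adjusted p from 0.0658 to 0.0846), with the log2 change between 0.44 and 0.52 in those fits. MXD1 was then the single member called higher, except that MAX passed without control 17.

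**Figure D2:**
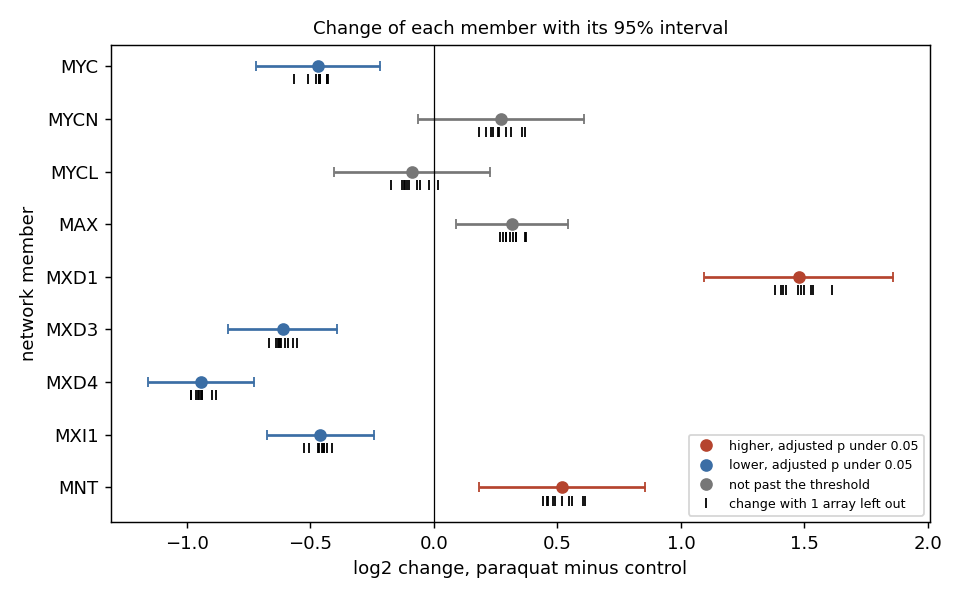
Log2 change of each member (x axis, paraquat minus control) with its 95% interval from limma, coloured by whether the adjusted p was under 0.05. Black ticks give the change with each array left out in turn; those of MXD1 lie between 1.38 and 1.61 and those of MXD4 between -0.98 and -0.88.

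Among the activators, MYC (transcript cluster 3115504) read 8.54, 8.59, 8.71, 8.53 and 8.40 on paraquat arrays 8, 12, 14, 18 and 20, and 9.05, 8.64, 9.06, 9.18 and 9.19 on control arrays 7, 11, 13, 17 and 19. All paraquat arrays lay below 4 of the 5 control arrays, and control 11 lay within the paraquat range. The means were 8.56 ± 0.11 in paraquat cells and 9.03 ± 0.22 in control cells (SD, n = 5 each). The log2 change was -0.47 ± 0.11 (limma adjusted p = 0.0135). Without control 11 it was -0.57.

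MYCN, the family member named for neuroblastoma, gave 2 rows that disagreed. The brighter row (transcript cluster 2470805) read 7.67, 8.42, 7.72, 8.19 and 8.30 on the paraquat arrays and 7.74, 7.75, 7.95, 7.87 and 7.63 on the control arrays, in number order. On paraquat 12, 18 and 20 it lay above all control arrays, and on paraquat 8 and 14 within the control range. Its log2 change was 0.27 ± 0.15 (limma adjusted p = 0.27), between means of 8.06 ± 0.35 in paraquat cells and 7.79 ± 0.12 in control cells (SD, n = 5 each).

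The dimmer MYCN row (transcript cluster 2470838) read 7.65, 7.05, 7.55, 7.07 and 7.10 on the paraquat arrays and 7.71, 7.52, 7.90, 7.78 and 7.58 on the control arrays. On the same arrays, paraquat 12, 18 and 20, it lay below all control arrays. Its log2 change was -0.41 ± 0.14 (limma adjusted p = 0.0599), between means of 7.28 ± 0.29 in paraquat cells and 7.70 ± 0.15 in control cells (SD, n = 5 each). The brighter minus the dimmer row was 0.02, 1.38, 0.17, 1.12 and 1.195 on paraquat arrays 8, 12, 14, 18 and 20, against 0.03, 0.24, 0.05, 0.08 and 0.05 on control arrays 7, 11, 13, 17 and 19. The 2 rows thus kept nearly the same distance on all control arrays and parted on 3 of 5 paraquat arrays, and the difference of 0.69 between their changes did not pass (exact two-sided permutation p = 0.0873, a test added after the values were seen). The annotation gives both rows only the symbol MYCN and no coordinates, so which transcripts they read, and the direction of MYCN, could not be settled from this table.

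MYCL, the third family member, had a log2 change of -0.09 ± 0.14 (limma adjusted p = 0.753; 95% interval -0.40 to 0.23). It lay between 5.75 and 6.51 on paraquat arrays and between 6.10 and 6.52 on control arrays, with the control range almost wholly inside the paraquat range. Paraquat 12 was the highest and paraquat 14 the lowest array of its group, and without paraquat 14 the log2 change was 0.02.

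MAX, the shared partner of the other members, read 7.99, 7.83, 8.10, 8.16 and 8.20 on the paraquat arrays and 7.55, 7.65, 7.80, 7.95 and 7.75 on the control arrays, in number order. The groups overlapped only through paraquat 12 and control 17, since every other paraquat array lay above all control arrays. Its means (transcript cluster 3568667) were 8.05 ± 0.15 in paraquat cells and 7.74 ± 0.15 in control cells (SD, n = 5 each), a log2 change of 0.32 ± 0.10 that missed the threshold (limma adjusted p = 0.0519; 95% interval 0.09 to 0.54). MAX passed in 9 of 20 alternatives, counting an exact permutation test whose p of 0.0159 is not adjusted. Among these were median centring (log2 change 0.36, limma adjusted p = 0.0316) and quantile normalization (0.38, adjusted p = 0.0259). Without paraquat 12 (0.37, adjusted p = 0.0266) and without control 17 (0.37, adjusted p = 0.0388) MAX passed as well. It also passed with adjacent sample numbers as a block (0.32, adjusted p = 0.0274), a pairing that the labels do not state.

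Whether members of the same family differed in their response was tested on the difference between their rows within each array. Of 9 pairs, 3 in the MYC family and 6 in the MXD family, 7 passed an exact two-sided permutation test after Benjamini-Hochberg adjustment over the 9 pairs. The passes of MXD1 against MXD3, MXD4 and MXI1 were fixed by the changes themselves, as set out below. These pairs also count in the adjustment. The smallest p that 5 against 5 arrays allow is 0.00794. A difference between rows on 1 array is not a ratio of transcripts, so only its shift between the groups is read.

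MXD1 parted from each of its relatives. MXD1 rose and MXD3, MXD4 and MXI1 fell, each without overlap between the groups. The smallest possible p was therefore fixed for the pairs with MXD1, and these tests add nothing to the changes above. MXD1 minus MXD4 lay between 0.05 and 1.02 on paraquat arrays and between -1.96 and -1.45 on control arrays, a shift of 2.42 (exact permutation p = 0.00794, adjusted p = 0.0143). The shift was 2.09 against MXD3 and 1.94 against MXI1, each with the same exact permutation p. Among the members that fell, the MXD4 row fell further than the MXI1 row (difference of changes -0.48, exact permutation p = 0.00794, adjusted p = 0.0143). It also fell further than the MXD3 row (MXD3 minus MXD4 shifted by 0.33, same p). The rows differ in mean level over all arrays (MXD4 8.08, MXI1 7.67, MXD3 6.91). Whether brightness plays a part in these differences was not tested. MXD3 and MXI1 were not told apart: their difference lay between -1.08 and -0.54 on paraquat arrays and between -0.73 and -0.56 on control arrays, a shift of -0.15 (exact permutation p = 0.214, adjusted p = 0.214), although the shift passed at -0.23 without paraquat 12 (adjusted p = 0.0204).

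In the MYC family, MYC minus MYCN shifted by -0.74 (exact permutation p = 0.0159, adjusted p = 0.0204) and MYCN minus MYCL by 0.36 (exact permutation p = 0.0159, adjusted p = 0.0204). Both rest on the brighter MYCN row. With the dimmer row the shifts were -0.05 (adjusted p = 0.698) and -0.33 (adjusted p = 0.241) by the same exact permutation test. The MYC minus MYCN call also ended without control 7, 13, 17 or 19 (adjusted exact permutation p = 0.051 each). MYC minus MYCL shifted by -0.38 (exact permutation p = 0.0794, adjusted p = 0.0893), and by -0.53 without paraquat 14 (adjusted p = 0.0119).

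**Figure D3:**
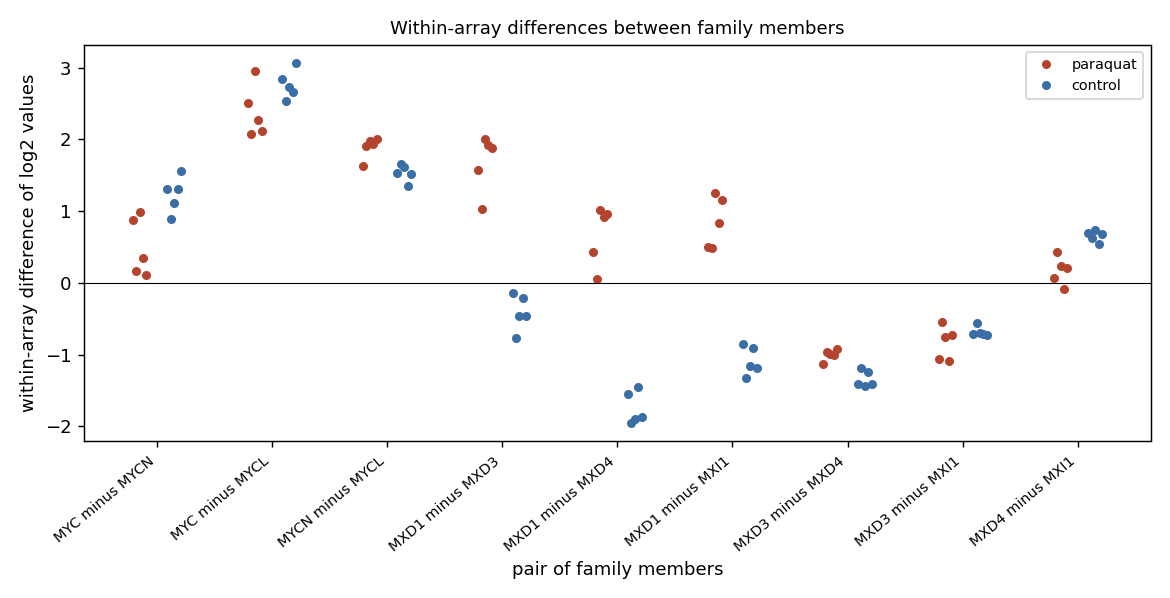
Within-array difference of log2 values (y axis) between 2 members of a family (x axis), with paraquat arrays left and control arrays right of each tick. The differences of MXD1 from MXD3, MXD4 and MXI1 do not overlap between groups, whereas those of MXD3 from MXI1 do.

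The genes whose profile over the 10 arrays lay closest to that of a member, after subtracting each gene's mean, were found for the 2 members with the largest changes. For MXD1 these were LAMP3, a lysosomal membrane protein, ZC3H12A, the ribonuclease regnase-1 that degrades cytokine messages, and CREB5, a CRE-binding transcription factor. Their root mean square differences from MXD1 were 0.165, 0.194 and 0.197 on the log2 scale, against a median of 0.810 over all genes. LAMP3 averaged 6.71 ± 0.25 in paraquat cells and 5.39 ± 0.25 in control cells (SD, n = 5 each). For MXD4 they were RNF182, a ubiquitin ligase, PWWP3A and TMEM19, at root mean square differences of 0.0758, 0.0853 and 0.0913, against a median of 0.517. RNF182 averaged 7.26 ± 0.14 in paraquat cells and 8.22 ± 0.08 in control cells (SD, n = 5 each). The likeness is a description of these arrays and is carried mainly by the difference between the groups.

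Partners and targets of the network were read from 8 lists of 126 genes, of which 100 had a row with a single symbol. Over these, 17 were higher and 15 lower after paraquat (32.0% called, against 23.8% of all genes), with a median log2 change of -0.06 beside -0.004 over all genes. The lists were chosen with earlier results of these data known, so the shares of the lists are no independent comparison with all genes.

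MLX is the MAX-like protein that pairs with the glucose-sensing factors MLXIP and MLXIPL, whose best known targets are the arrestin-like genes TXNIP and ARRDC4. Of these 5 genes 0 were higher and 1 lower (20% called, against 23.8% of all genes), with a median log2 change of -0.04. TXNIP fell by 3.49 ± 0.12 on the log2 scale (limma adjusted p = 3.6e-08). ARRDC4 had a change of -0.04 (adjusted p = 0.838), which turned to 0.008 after median centring and 0.01 after quantile normalization, MLX 0.12 (adjusted p = 0.493) and MLXIP -0.24 (adjusted p = 0.349).

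Of 11 genes of the SIN3 corepressor that MXD proteins and MNT recruit, 0 were higher and 1 lower, at a median of -0.19. The share called was 9.09%, against 23.8% of all genes. This count was not stable: over 19 alternatives the number lower ran from 0 to 4 and differed from 1 in 11 of them. The scaffold SIN3A fell by 0.46 ± 0.13 on the log2 scale (limma adjusted p = 0.0323). That call ended without paraquat 12, 18 or 20 or control 7, 13 or 17 (adjusted p from 0.0561 to 0.08), and HDAC1, a histone deacetylase of the complex, passed without paraquat 12 (-0.62, adjusted p = 0.026). Of 9 measured cofactors of MYC, 2 were higher and 1 lower (33.3% called), at a median of -0.20. RUVBL1, an ATPase of chromatin-remodelling complexes, fell by 0.56 ± 0.14, while CCNT1, the cyclin of the elongation factor P-TEFb, rose by 0.35 ± 0.11. The CCNT1 call ended without paraquat 8, 14 or 20 or control 7, 13 or 19 (limma adjusted p from 0.0673 to 0.0965). ZBTB17, known as MIZ1, the zinc finger protein through which MYC represses genes, rose by 0.34 ± 0.09 (limma adjusted p = 0.0166). Among 7 measured partners of MGA in the Polycomb complex PRC1.6, 0 were called in either direction by limma, at a median of -0.007, 3 had an unadjusted p under 0.05 and 2 an exact permutation p under 0.05. L3MBTL2 had a change of -0.40 (adjusted p = 0.0523) and CBX3 -0.37 (adjusted p = 0.126). L3MBTL2 (-0.50, adjusted p = 0.00582) and RING1 (0.40, adjusted p = 0.0376) passed without control 11, and CBX3 (-0.49, adjusted p = 0.0294) without paraquat 12.

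Genes that control the stability of MYC proteins changed on both sides. Of 13 measured members 2 were higher and 4 lower (46.2% called, against 23.8% of all genes), at a median of -0.05. FBXW7, the ubiquitin ligase subunit that marks phosphorylated MYC and MYCN for degradation, averaged 8.28 ± 0.23 in paraquat cells and 6.86 ± 0.15 in control cells (SD, n = 5 each), a 2.68-fold rise (limma adjusted p = 1.67e-05). USP36, a nucleolar deubiquitinase that opposes FBXW7 on MYC, averaged 8.89 ± 0.16 in paraquat cells and 7.86 ± 0.17 in control cells, a 2.04-fold rise. The mitotic kinases AURKA and PLK1, both known to shield MYCN from degradation, fell by 1.84 ± 0.19 and 1.54 ± 0.20 on the log2 scale. Both kinases are also genes of G2 and mitosis. The remaining genes called lower were SKP2 (-0.92, limma adjusted p = 0.000926) and STUB1 (-0.51, adjusted p = 0.00275). CIP2A, an inhibitor of the phosphatase PP2A that stabilises MYC, passed downward without paraquat 14 (-0.72, limma adjusted p = 0.0209) and without control 19 (-0.67, adjusted p = 0.0493).

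Measured targets of MYC in ribosome synthesis stayed mostly under the threshold. Of 32 listed genes 9 had no row with a single symbol, among them NCL, NOP56 and DKC1. The NPM1 row lay in the dimmest of 5 equal groups of rows (mean 3.75), so its missing call says little. Of 23 measured genes 3 were higher and 1 lower (17.4% called, against 23.8% of all genes), at a median of 0.06. POLR3G, a subunit of RNA polymerase III, fell by 0.95 ± 0.19 on the log2 scale. The ribosome assembly factors RRP12, DDX21 and NOP2 rose by 0.49, 0.39 and 0.37, of which DDX21 lost its call without paraquat 14, 18 or 20 or control 7 or 17 (limma adjusted p from 0.0528 to 0.0612). Without control 11, 3 genes of the list were lower, with POLR1A (-0.46) and PA2G4 (-0.43) gained, and 4 were higher, with NOP16 (0.39) gained. Without paraquat 14, 2 were lower and 2 higher. Of 22 measured targets in growth and metabolism 4 were higher and 6 lower (45.5% called), at a median of -0.10. SLC7A5, a large neutral amino acid transporter that is also a target of the stress factor ATF4, averaged 10.92 ± 0.17 in paraquat cells and 9.01 ± 0.37 in control cells (SD, n = 5 each), a 3.76-fold rise. The cell cycle phosphatase CDC25A fell by 0.97 ± 0.12, the purine synthesis enzyme PAICS by 0.84 ± 0.14 and lactate dehydrogenase LDHA by 0.75 ± 0.08. The uncalled CCND2 row lay in the dimmest group of rows (mean 3.67), so its missing call says little.

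Of 10 measured genes that MYC is reported to repress, 6 were higher and 1 lower (70.0% called, against 23.8% of all genes). The median log2 change was 0.58. GADD45A rose 6.37-fold, CDKN1A, the cyclin-dependent kinase inhibitor p21, 5.54-fold, the differentiation-related NDRG1 2.21-fold and GADD45G 2.06-fold. CDKN1A and GADD45A are equally known as targets of p53, and NDRG1 as a gene induced by hypoxia and metal stress. NDRG2, chosen for mention after its value was seen as the single member called lower, had a change of -0.92 ± 0.14 (limma adjusted p = 0.000704). CDKN1B (-0.52, adjusted p = 0.172) and PDGFRB (-0.13, adjusted p = 0.583) also had negative changes but were not called. The uncalled THBS1 row lay in the dimmest group of rows (mean 3.92), so its missing call says little.

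**Figure D4:**
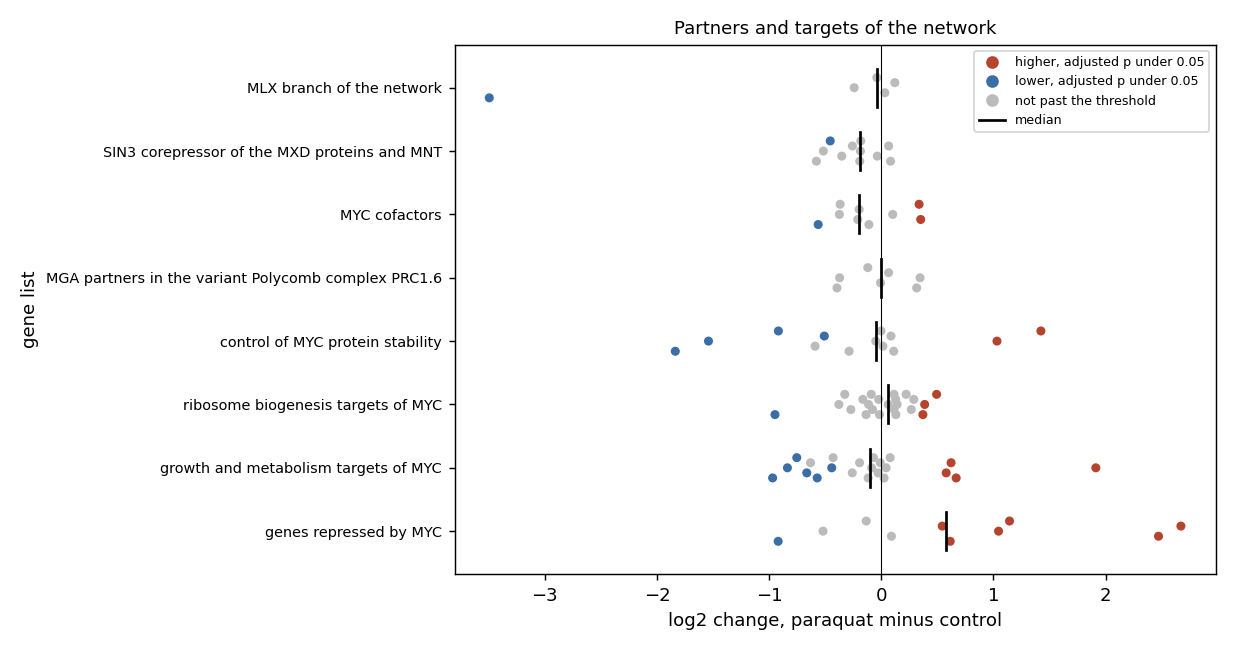
Log2 change (x axis, paraquat minus control) of every measured gene in 8 lists of network partners and targets (y axis), coloured by whether the adjusted p was under 0.05, with the list median as a black bar. The median of the genes repressed by MYC is 0.58, and those of the other lists lie between -0.20 and 0.06.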

How the data were processed

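The authors deposited log2 expression values made with RMA, per the submitters' processing notes, from Affymetrix GeneChip Exon 1.0 ST arrays hybridised with biotin-labelled RNA after depletion of ribosomal RNA, per the labels' protocols. Software, summarisation level, filters and build: none is given in the sources used here. The range of the values (1.07 to 14.37) shows the log2 scale. Of 22011 rows, 14432 carried 1 symbol, 14404 of them matched to RefSeq by gene identifier. No detection calls were used.

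The 5 paraquat and 5 control arrays were compared on the deposited values with limma 3.58.1 under R 4.3.3, with the group as the only term, 8 residual and 3.06 prior degrees of freedom, two-sided, without filter. The fit was tested on simulated data. Pairs of members were compared by exact permutation over 252 arrangements of the arrays. Genes were named by rule: every member, in each list up to 4 called genes with the largest absolute change (2 as values where none was called), and 3 nearest profiles for 2 members. ARRDC4, MLX, MLXIP, NDRG2 and genes whose call turned with 1 array left out (HDAC1, RING1, POLR1A, PA2G4, NOP16, CIP2A) were added after their values were seen. SKP2, STUB1, NPM1, CCND2, CDKN1B, PDGFRB and THBS1 were added likewise. The members and lists were chosen with earlier results of these data known. Precision is limited by the number of arrays, with a median standard error of 0.13 for a log2 change. Alternatives covered scaling, a filter on dim rows, array weights, moderation, the row standing for a gene and adjacent sample numbers as a block. They also covered a minimum fold, arrays left out and an exact permutation test without adjustment.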

Additional observations from a re-analysis of the deposited data

Results flagged for a closer look

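Among 18 groups of 5 arrays (9 members in each of 2 treatments), 2 held an array far from the rest, where chance gives about 1 in 20. MYC on control 11 was 8.639, the lowest of the control arrays, with the nearest at 9.054, a gap of 0.754 of the group's range. MXD3 on paraquat 18 was 6.374, the lowest of the paraquat arrays, with the nearest at 6.633, a gap of 0.752 of the range. Without control 11 the log2 change of MYC was -0.57, and without paraquat 18 that of MXD3 was -0.55, both still called. Their cause was not tested.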

How the results depend on the processing

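Under 20 alternatives each, MXD1, MXD3 and MXD4 kept their direction and their call, with log2 changes from 1.38 to 1.61, from -0.67 to -0.55 and from -0.98 to -0.88. MYC and MXI1 did so except when tested against a minimum fold of 1.2 (limma adjusted p = 0.332 and 0.258). At that minimum fold 1 member was higher and 2 lower, 9 list genes higher and 9 lower, and 735 rows higher and 913 lower, against 1873 and 2524 rows as reported. MNT lost its call in 8 alternatives (adjusted p up to 0.396). MAX gained one in 9, counting the exact permutation test, whose p is not adjusted (log2 change 0.27 to 0.38 over all). With 1 array left out, 1 to 3 members were higher and 4 lower. MYCN turned to -0.071 with the mean of its 2 rows and to -0.41 with the dimmer row, which was chosen after seeing the data. MYCN minus MYCL turned to -0.33 with that row, and MYCL, between -0.17 and 0.02 with 1 array left out, turned to 0.017 without paraquat 14. ARRDC4 turned to 0.0083 after median centring and 0.011 after quantile normalization. The cause of these turns was not tested. List genes lower numbered 23 with array weights and 25 with adjacent sample numbers as a block, against 15. The labels give the groups no shared sample number and do not say that arrays with adjacent numbers (7 with 8 and so on) belong together. Such arrays deviated from their group means with correlations of 0.0912 to 0.461. With adjacent numbers as a block MAX gained a call (limma adjusted p = 0.0274), and the calls of the other members were kept. Median centring moved the median change of all rows to 0.05, against 0.005 as reported, and gave 2241 rows higher and 2211 lower. A single value per gene limits what can be said of isoforms.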
